A study of Homo sapiens with 6 samples.

Results

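The genes described here are 9 snoRNA host genes (GAS5, SNHG1, SNHG5, SNHG6, SNHG7, SNHG8, SNHG12, SNHG15 and ZFAS1), taken by symbol from the 26334 genes that the authors quantified, with 17 of the 51398 isoforms. They were measured by RNA-Seq of total RNA from PC-9 cells, a human lung adenocarcinoma line with an activating EGFR mutation. The cells expressed shScr, a scrambled shRNA, or an shRNA that targets the splicing regulator RBM10, shRBM10#1 or shRBM10#2. All were grown in RPMI with 10% FBS and no further treatment was named. Each condition had 2 libraries, 6 in all. All libraries came from 1 cell line, the labels do not say whether the replicates were separate cultures, and p-values therefore measure only the spread between these libraries. The labels and the study's results section name shScr as the control, whereas its methods name parental PC-9 cells. The libraries were used as labeled.

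A snoRNA host gene is transcribed for what its introns hold. When the introns are removed, the small nucleolar RNAs within them are trimmed out and guide the chemical modification of ribosomal RNA, while the joined exons leave for the cytoplasm as a by-product. In these genes the exons carry only short reading frames, and ribosomes that end early upstream of an exon junction mark the RNA for nonsense-mediated decay, the pathway that removes transcripts with premature stop codons. The steady level of the spliced RNA is therefore known to rise when translation or the decay pathway is blocked. Several of these genes start, like the genes of ribosomal proteins, with a terminal oligopyrimidine (TOP) run, a C followed by further pyrimidines that ties translation of the RNA to growth. GAS5 was named for its accumulation in growth-arrested cells. No decay inhibitor, half-life or translation measurement was part of this data set, so the values below are steady levels.

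The start sites are shown first because the TOP run is what these genes are known to share with the ribosomal protein genes. Each line gives 10 bases before and 20 bases from the annotated RefSeq start (GRCh38.p14, 5′ to 3′ on the strand of the gene), with the unbroken pyrimidines that begin with a C at the annotated start in capitals. The windows lie at chr1:173869026-173869055 (minus) for GAS5, chr11:62855866-62855895 (minus) for SNHG1, chr6:85678714-85678743 (minus) for SNHG5, chr9:136728165-136728194 (minus) for SNHG7, chr4:118278752-118278781 (plus) for SNHG8, chr1:28581854-28581883 (minus) for SNHG12 and chr20:49278632-49278661 (plus) for ZFAS1.
GAS5: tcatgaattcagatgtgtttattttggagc
SNHG1: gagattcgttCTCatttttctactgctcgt
SNHG5: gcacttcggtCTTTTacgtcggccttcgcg
SNHG7: ccttctcgtcCTCTgcgtgcgccggaggct
SNHG8: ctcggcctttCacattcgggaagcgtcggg
SNHG12: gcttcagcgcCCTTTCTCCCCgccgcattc
ZFAS1: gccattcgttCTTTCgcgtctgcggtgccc

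A C at the annotated start followed by at least 4 further C or T, read on the strand of the gene, was found in 3 of these 7 genes (SNHG5, SNHG12 and ZFAS1), or 42.9%. It was found at 4.07% of the 35116 starts in the same RefSeq table and at 47 of 78 ribosomal protein genes (60.3%). The run was 4 bases long in SNHG7, 3 in SNHG1 and 1 in SNHG8, and the annotated start of GAS5 did not begin with C. That GAS5 start, 173869045 on the minus strand, lies outside the GENCODE 29 span of the gene (173863900 to 173868882). The GENCODE transcript matched to the GAS5 isoform quantified here begins downstream of it, at 173867987. The GAS5 letters shown are therefore not the start of that isoform, and the 3 of 7 does not cover it. The ZFAS1 start shown (49278642) is that of the transcript matched to NR_036659. Those matched to its other isoforms begin at 49278178 or 49278271. The SNHG12 transcript begins at 28581818, downstream of the start shown (28581873), and is shorter than the quantified isoform (682 against 739 nt). Matched starts also differ for SNHG1 (62855867 against 62855885) and SNHG8 (118278709 or 118278758 against 118278762). A match describes the letters at the annotated start and not the start used in PC-9 cells. SNHG6 and SNHG15 were not among the table's entries.

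The exon structure that exposes these RNAs to decay was read from GENCODE 29 (GRCh38). The 17 isoforms matched 16 GENCODE transcripts by RefSeq identifier, and the annotated lengths differ for several of them. In 14 of the 16 transcripts (87.5%) the reading frame from the first ATG ended more than 50 nt upstream of at least 1 exon junction, against 71.4% of 24547 spliced transcripts of noncoding genes. The exceptions were the 2-exon SNHG7 isoform NR_003672 (2159 nt in the RSEM output) and the short SNHG8 isoform NR_034011 (274 nt). GAS5 (chromosome 1, 173863900 to 173868882, minus strand) had 5 junctions beyond that distance among its 12 exons, and SNHG1 (chromosome 11, 62851988 to 62855914, minus strand) had 9.

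The intronic snoRNAs themselves could not be followed. All 32 snoRNAs listed for the 9 hosts have an entry, from 10 in GAS5, 8 in SNHG1, 4 in SNHG12 and 3 in ZFAS1 to 1 each in SNHG6, SNHG8 and SNHG15. They are 43 to 134 nt long, shorter than the sequenced fragments, and every one had an effective length of 0 and an expected count of 0 in every library. A count of 0 is here a limit of the quantification and not a measurement. The readout is therefore the spliced exons alone.

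Library totals were 31953729 to 37557507 expected counts. The mean fragment implied by the effective lengths was 231 nt in shScr replicate 2 and 265 to 281 nt in the other libraries. RBM10, the targeted gene, was measured at 83.2 and 86.2 CPM in shScr cells, 59.8 and 56.4 CPM in shRBM10#1, and 27.2 and 26.9 CPM in shRBM10#2 (CPM, counts scaled to library size by the TMM method). Of the epithelial markers KRT8, KRT18 and EPCAM were abundant, the last at 379 to 455 TPM (abundance per unit of transcript length), whereas the lung lineage factor NKX2-1 was at 0.39 TPM or less. Of 8 such markers 7 were tested. EGFR was lower with shRBM10#1 (log2 FC −0.29, FDR = 0.0441, edgeR) and shRBM10#2 (−0.38, FDR = 0.00758). KRT19 was higher with shRBM10#1 (0.28, FDR = 0.012) and lower with shRBM10#2 (−0.28, FDR = 0.00842). EPCAM was higher with shRBM10#2 (0.24, FDR = 0.018). The shares called were 28.6% and 42.9%, against 14% and 25.9% of all genes. Of 10 markers of other cell types, HBB was at 0 in every library, PTPRC, CD3E, COL3A1 and DCN were at 0.11 TPM or less, and 5 were tested. CD68, a lysosomal protein used as a macrophage marker, was at 76.8 to 116 TPM. In counts it was at 110 and 114 CPM in shScr, 88.7 and 89.9 CPM in shRBM10#1, and 82.5 and 85.0 CPM in shRBM10#2. It was lower with shRBM10#1 (log2 FC −0.33, FDR = 0.00411, edgeR), with shRBM10#2 (−0.42, FDR = 7.88e-04) and in the pooled comparison (−0.37, FDR = 0.048). PECAM1 was higher with shRBM10#1 (0.54, FDR = 0.0459), and COL1A1 (−0.37, FDR = 0.0403) and VWF (−0.96, FDR = 0.042) were lower with shRBM10#2. ALB was called higher with shRBM10#2 against shScr (FDR = 6.25e-05) and against shRBM10#1 (FDR = 9.01e-05), at 0 in both shScr libraries, 0.05 and 0.02 TPM in shRBM10#1 and 1.54 and 1.81 TPM in shRBM10#2. The summed level of the 10 was 125 and 129 CPM in shScr, 103 and 104 CPM in shRBM10#1, and 99.4 and 103 CPM in shRBM10#2, most of it from CD68, and its part in the results was not tested.

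The host genes were well expressed and covered a wide range. Per unit length, ZFAS1, an antisense host of a snoRNA trio next to ZNFX1, was the most abundant, at 402 to 498 TPM. GAS5 followed at 194 to 284 TPM and overlapped SNHG8, at 153 to 236 TPM. SNHG6 (99.0 to 150 TPM) and SNHG7 (96.7 to 132 TPM) overlapped each other, as did SNHG1 (61.5 to 101 TPM) and SNHG5 (49.9 to 78.8 TPM). SNHG15 (20.5 to 28.6 TPM) and SNHG12 (11.8 to 21.3 TPM) were the lowest and overlapped as well. Together the 9 genes made up 0.0337% to 0.0461% of all counts.

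Of the 9 genes, 6 have 1 isoform each, and their counts were whole numbers in every library, so that no read was divided with another transcript. SNHG7, SNHG8 and ZFAS1 have 3, 3 and 5 isoforms, among which RSEM divided reads. On the opposite strand, exons of MCMDC2 cover 36.2% of the exon sequence of SNHG6, exons of ZNFX1 cover 24.2% of that of ZFAS1, and GAS5-AS1 covers 6.49% of that of GAS5. The strand protocol is not given in the sources used here, so reads from such overlaps could not be told apart by strand. MCMDC2 was at 0.869 to 1.36 CPM and GAS5-AS1 at 0.133 CPM or less. ZNFX1 was at 97.6 to 109 CPM, with no difference that passed the test in any comparison.

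Before the conditions are compared, the spread between replicates must be given, since it was wide among the controls. All 9 genes were higher in shScr replicate 1 than in shScr replicate 2, by at least 1.14-fold (SNHG15), with a median of 1.25-fold and the widest gap in SNHG5. Over all 14217 genes tested, 49.5% were higher in shScr replicate 1 and the median ratio was 0.998. The 9 genes are short, 420 to 1118 nt when isoform lengths are weighted by TPM. Of the 1169 tested genes in that range of lengths, 72.8% were higher in shScr replicate 1, with a median ratio of 1.08. Between the shRBM10#2 libraries the ratio of replicate 1 to replicate 2 was 0.909 to 1.03, and between the shRBM10#1 libraries it was 0.730 to 1.05. The order of the shScr libraries also held for all 9 genes in TPM, which allows for effective length. The part of fragment length in the gap between the shScr libraries was not tested.

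GAS5, host of the most snoRNAs in the group, was measured at 66.4 and 51.2 CPM in shScr cells, 48.0 and 57.2 CPM in shRBM10#1, and 69.4 and 71.5 CPM in shRBM10#2. Both shRBM10#2 libraries lay above the other 4. For this gene and those below, the share of all genes with that order was not computed. The shRBM10#1 libraries overlapped shScr. In bulk RNA, fewer cells expressing a gene and less RNA per cell cannot be told apart.

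SNHG1, the host of the SNORD22 cluster, was at 50.1 and 36.9 CPM in shScr, 37.2 and 37.0 CPM in shRBM10#1, and 58.0 and 57.6 CPM in shRBM10#2. The shRBM10#1 libraries sat at the level of shScr replicate 2, and the shRBM10#2 libraries above every other library.

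SNHG12, which hosts mostly H/ACA snoRNAs that direct pseudouridylation, had the fewest reads, 118 to 264 expected counts. It was at 4.87 and 3.89 CPM in shScr, 3.77 and 4.15 CPM in shRBM10#1, and 6.76 and 6.89 CPM in shRBM10#2. It had the widest separation of shRBM10#2 from the other conditions among the 9.

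SNHG6, host of SNORD87, was at 18.1 and 14.5 CPM in shScr, 15.5 and 16.2 CPM in shRBM10#1, and 20.4 and 19.8 CPM in shRBM10#2. SNHG15, host of SNORA9, was at 8.90 and 7.81 CPM, 8.12 and 7.74 CPM, and 9.56 and 10.5 CPM in the same order. In both genes the shRBM10#2 libraries were the highest and the other conditions overlapped.

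SNHG5, host of the SNORD50 pair, was at 12.5 and 8.35 CPM in shScr, 8.25 and 11.3 CPM in shRBM10#1, and 12.0 and 13.1 CPM in shRBM10#2. ZFAS1, host of the SNORD12 trio, was at 185 and 159 CPM in shScr, 155 and 180 CPM in shRBM10#1, and 184 and 194 CPM in shRBM10#2. In these genes shScr replicate 1 reached into the shRBM10#2 values.

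SNHG7, host of the SNORA17 pair, was at 64.0 and 43.4 CPM in shScr, 48.8 and 53.3 CPM in shRBM10#1, and 54.4 and 56.6 CPM in shRBM10#2. SNHG8, host of SNORA24, was at 25.1 and 20.4 CPM, 19.6 and 22.2 CPM, and 22.05 and 21.95 CPM in the same order. The shScr libraries spanned all the others for SNHG7, and the conditions overlapped for SNHG8 as well.

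**Figure D1:**
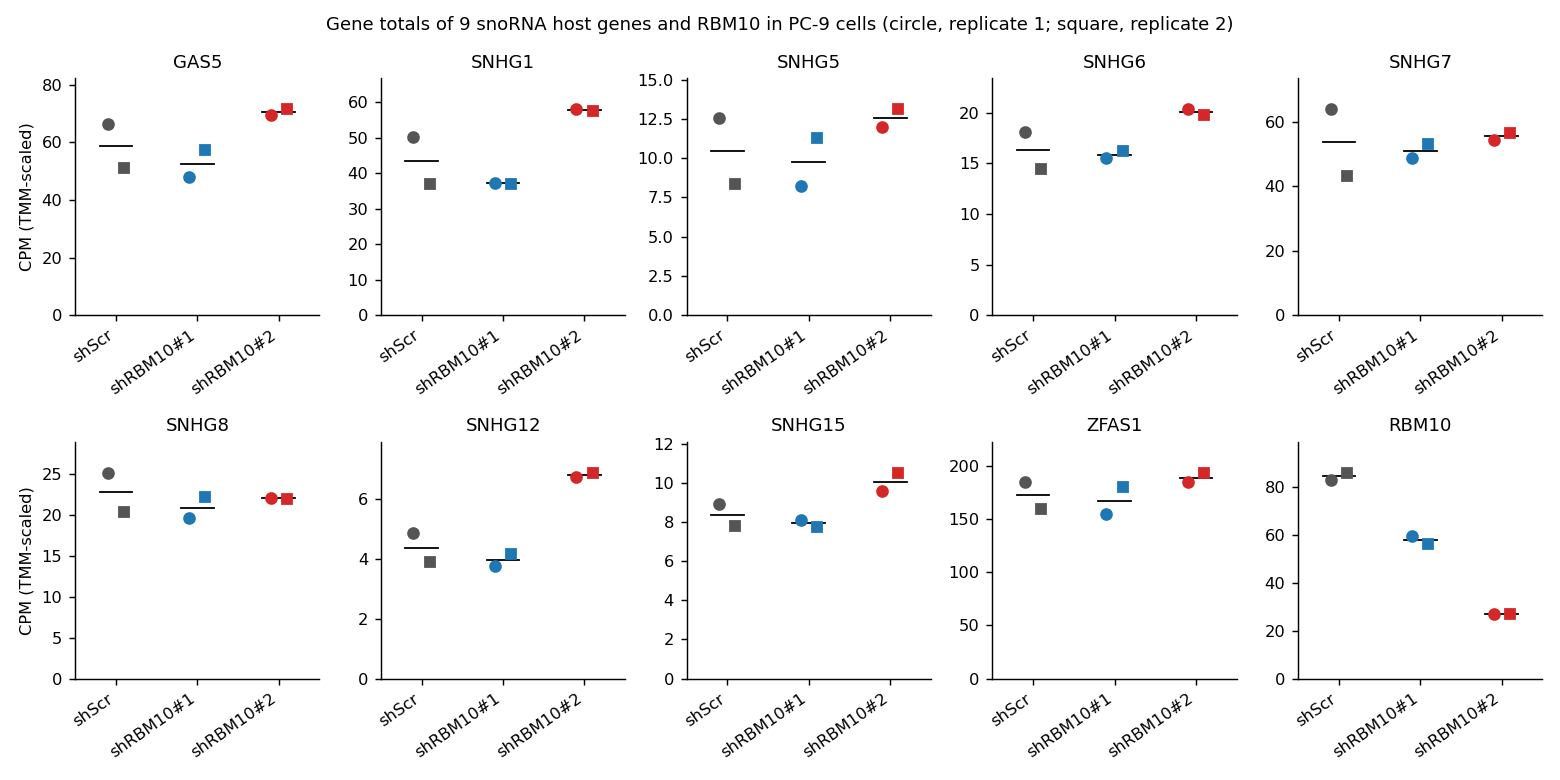
Gene totals in CPM (vertical axes from 0, each panel on its own scale) for the 9 host genes and RBM10 in the 3 conditions. Circles are replicate 1, squares replicate 2 and lines the means. In all 9 host genes shScr replicate 1 is above replicate 2. Both shRBM10#2 libraries lie above the other 4 for GAS5, SNHG1, SNHG6, SNHG12 and SNHG15. Of all genes, 33.6% have both above shScr and 32.9% both above shRBM10#1, and the share above all 4 was not computed.

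shRBM10#1 against shScr asks whether the milder knockdown moved the host genes. None of the 9 passed (FDR below 0.05 by the quasi-likelihood test of edgeR, Benjamini-Hochberg adjusted over 14217 genes), against 14% of all genes tested. All 9 log2 FC values were below 0, from −0.23 (SNHG1, SE 0.111, FDR = 0.196) to −0.038 (SNHG6), with a median of −0.09 against 0.008 for all genes. None had an unadjusted p below 0.05, against 28.5% of all genes, and DESeq2 called 0, against 12.6% of all genes. With the offset for effective length SNHG6 (0.052) and SNHG8 (0.029) were above 0. Without shScr replicate 1, all 9 values were above 0, between 0.0093 (SNHG1) and 0.24 (SNHG7). Without shScr replicate 2 the values of SNHG1 and SNHG7 lay further below 0, and without the filter on low counts SNHG1 was called lower.

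shRBM10#2 against shScr asks the same of the stronger knockdown. SNHG12 rose by a log2 FC of 0.64 (SE 0.151, FDR = 0.00893, edgeR), to 156% of the shScr level, and SNHG1 rose by 0.41 (SE 0.108, FDR = 0.0159), to 133%. These 2 of 9 (22.2%) stand against 25.9% of all genes called and 12% called higher. At an unadjusted p below 0.05 there were 5 of the 9, against 37.9% of all genes. The next were SNHG6, with a log2 FC of 0.30 (FDR = 0.0514), GAS5 with 0.26 (FDR = 0.098), SNHG5 with 0.27 (FDR = 0.29) and SNHG15 with 0.27 (FDR = 0.116), none of which passed. The values of ZFAS1 (0.13), SNHG7 (0.05) and SNHG8 (−0.05) were within 2 SE of 0, as was that of SNHG5 (SE 0.175). In all, 8 of 9 values were above 0, with a median of 0.27 against 0.005 for all genes. Both shRBM10#2 libraries lay above both shScr libraries in 5 of the 9, as in 33.6% of all genes. The calls did not hold with every library left out in turn. A fit without an shScr or shRBM10#2 library leaves 1 in that condition. Lower power and dependence on that library cannot be told apart from 1 such fit alone. The fits that leave 1 shScr library are of equal size, yet their calls and log2 FC values differed. The outcome thus depended on which shScr library was kept, and all 9 genes were higher in shScr replicate 1 than in replicate 2.

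shRBM10#2 against shRBM10#1 compares the shRNAs directly and does not use the shScr libraries as reference. Higher values with shRBM10#2 were called in 5 genes, and each of the 9 had a log2 FC above 0. SNHG12 differed by 0.78 (SE 0.152, FDR = 0.00329, edgeR), SNHG1 by 0.64 (SE 0.109, FDR = 0.00161) and GAS5 by 0.42 (SE 0.11, FDR = 0.0147). SNHG6 and SNHG15 each differed by 0.34 (FDR = 0.0325 and 0.0491). The 5 of 9 (55.6%) stand against 25.5% of all genes called and 11% called higher. The same 5 had an unadjusted p below 0.05, against 38.1% of all genes. The median of the 9 was 0.34, against 0.007 for all genes. SNHG5 (0.36, FDR = 0.155), ZFAS1 (0.18, FDR = 0.155), SNHG7 (0.12) and SNHG8 (0.07) did not pass. The libraries of the shRNAs did not overlap in 8 of the 9, SNHG8 being the exception, as in 32.9% of all genes in that direction. With the effective length offset the calls fell to SNHG1 and SNHG12. They did not all hold without single shRNA libraries either, where 1 library is left in a condition and power is lower.

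**Figure D2:**
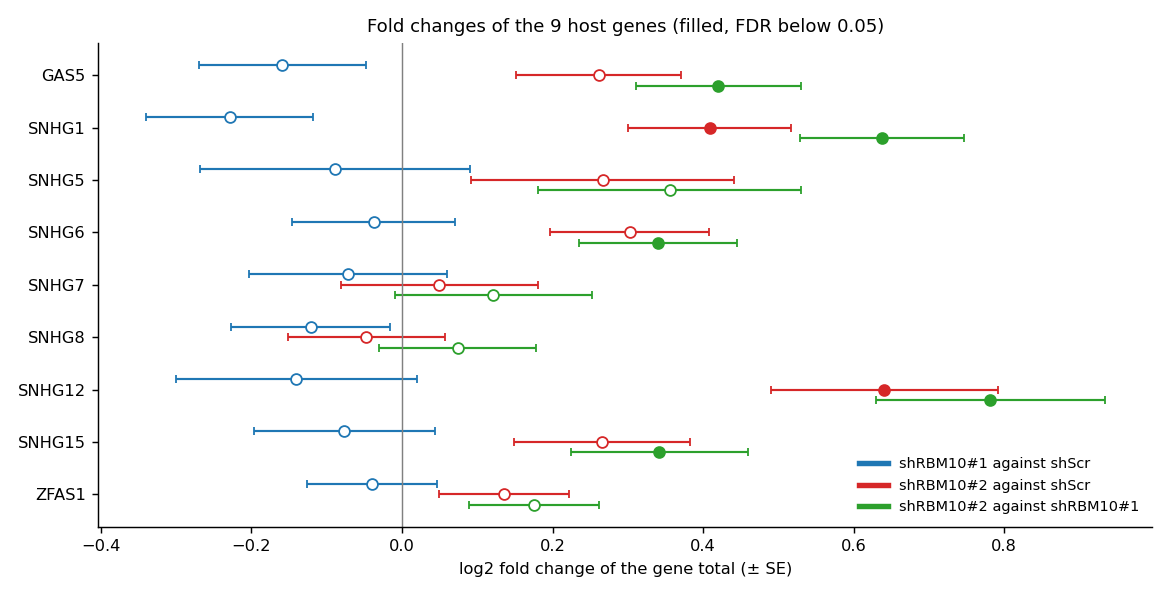
Log2 FC of the gene total (horizontal axis, bars ± SE) for each host gene in the 3 comparisons between conditions, with filled points for an FDR below 0.05. The values for shRBM10#1 lie left of 0 and those for shRBM10#2 mostly right of it, with SNHG12 (0.64 against shScr and 0.78 against shRBM10#1) the farthest right.

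The 4 RBM10 KD libraries were also compared with shScr as 1 group. None of the 9 passed, against 1.62% of all genes, and the smallest FDR was 0.603 (edgeR). None had an unadjusted p below 0.05, against 17.2% of all genes, and DESeq2 called 0, against 5.05%. RBM10, the targeted gene, did not pass the pooled test either (log2 FC −0.99, SE 0.306, FDR = 0.146, edgeR). It passed with shRBM10#1 (FDR = 2.28e-04) and with shRBM10#2 (FDR = 5.10e-08). Differences between the shRNAs add to the spread of the pooled test, so the absence of calls does not show an absence of change. Under the stricter rule that also asks for a change beyond 2-fold, none of the 9 passed in any comparison. Of all genes, 1.88% passed that rule with shRBM10#1, 1.3% with shRBM10#2, 1.19% between the shRNAs and 0.394% in the pooled comparison. The comparisons with shScr share its 2 libraries, so values below 0 with one shRNA and above 0 with the other were both read from the same wide reference.

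Genes in the same length range gave a background for these values. The median log2 FC of the 1169 genes from 420 to 1118 nt was 0.05 with shRBM10#1 and 0.07 with shRBM10#2 against shScr, and 0.04 between the shRNAs. In these comparisons 5.56%, 17.8% and 14.4% of them were called higher. Among the 13017 longer genes the shares were 7.28%, 11.5% and 10.7%. The part of length in the calls of the host genes was not tested beyond the offset above.

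Isoforms were compared in the 3 genes that have several, and the other 6 genes entered with their only isoform. Of the 17 isoforms, 0 passed with shRBM10#1 (background 0.0302%), 0 with shRBM10#2 (background 2.26%) and 0 in the pooled comparison (background 0%), where 2875 of the 26464 isoforms had an unadjusted p below 0.05. At an unadjusted p below 0.05 there were 0, 4 and 1 of the 17, against 14.5%, 21.5% and 10.9% of all isoforms. DESeq2 called 0, 4 and 0 of the 17, against 9.35%, 17.7% and 3.1% of all isoforms with an adjusted p. The 4 with shRBM10#2 were those of SNHG1 and SNHG12 and NR_003604 and NR_003606 of ZFAS1, both by DESeq2 and in edgeR at the unadjusted threshold.

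ZFAS1 has the most isoforms of the 9. Its gene lies on the plus strand of chromosome 20 (49278178 to 49295738, GRCh38), and its isoforms differ in the first exon and in a pair of short internal exons, of 86 nt (49280485 to 49280570) and 62 nt (49280903 to 49280964). NR_003604 (1006 nt) and NR_003605 (687 nt) hold both, NR_036658 (944 nt) and NR_036659 (502 nt) lack the 62 nt exon, and NR_003606 (858 nt) lacks both. The junctions that tell them apart are shown because reads across them are what separates the forms. Each line gives the last 15 bases of the exon before the junction and, in capitals, the first 15 of the exon after it, from the GENCODE 29 transcripts.
86 nt exon to 62 nt exon: atacatataaaattgGTTGGGAGCCACGTG
86 nt exon to 216 nt last exon: atacatataaaattgAAACTGGCGATGGAA
105 nt exon to 216 nt last exon: tcgatctcctgacgaAAACTGGCGATGGAA

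Isoforms with the 62 nt exon accounted for 67.9% (66.7% to 69.0%, 95% Wilson interval) and 66.3% (65.0% to 67.6%) of the ZFAS1 counts in shScr cells. Under shRBM10#1 they were 69.3% (67.9% to 70.5%) and 70.3% (69.2% to 71.4%), and under shRBM10#2 they were 73.4% (72.4% to 74.5%) and 74.3% (73.3% to 75.3%). The 3 conditions did not overlap, and the share was highest with shRBM10#2. How often isoform shares of other genes separate in this way was not computed. Among gene totals, both shRBM10#2 libraries lay above both shScr libraries in 33.6% of all genes. The mean was 67.1% ± 1.10 (SD, n = 2) for shScr, 69.8% ± 0.724 (SD, n = 2) for shRBM10#1 and 73.9% ± 0.596 (SD, n = 2) for shRBM10#2. The difference from shScr was 2.69 percentage points with shRBM10#1 and 6.77 with shRBM10#2, and the shRNAs differed by 4.08. By exact permutation (two-sided), p was 0.333 for each difference, which is the lowest value that 2 libraries against 2 can give. For the 4 RBM10 KD libraries against shScr the difference was 4.73 percentage points (two-sided exact permutation of the 15 splits, p = 0.133, again the lowest value possible). The sorting of isoforms by these exons was set up with their values known. The intervals cover counting error alone and leave out the error of dividing reads among isoforms.

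The forms that hold the 86 nt exon without the 62 nt exon ran in the opposite order. These made up 29.7% and 31.1% of the counts with shScr, 27.7% and 27.0% in shRBM10#1, and 22.4% and 22.1% in shRBM10#2. The form without both exons was rare, at 2.42% and 2.60% with shScr, 3.06% and 2.71% in shRBM10#1, and 4.18% and 3.60% in shRBM10#2, and so was also highest with shRBM10#2. In TPM the share with the 62 nt exon was 58.5% and 54.3% with shScr, 59.5% and 59.7% in shRBM10#1, and 63.9% and 64.2% in shRBM10#2, in the same order.

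By isoform, NR_003604 had 188 and 192 TPM in shScr, 177 and 204 TPM in shRBM10#1, and 231 and 242 TPM in shRBM10#2. Its log2 FC with shRBM10#2 was 0.36 (SE 0.0973, FDR = 0.119, edgeR). That of NR_003606 was 0.77 (SE 0.167, FDR = 0.0787), from 11.01 and 10.9 TPM with shScr to 19.4 and 17.2 TPM. NR_036658 (−0.27), NR_036659 (−0.37) and NR_003605 (−0.12) had values below 0. NR_003605 was at 103 TPM in shScr replicate 1 and 56.1 TPM in shScr replicate 2, with the other libraries between them at 61.9 to 73.6 TPM. None of these passed in edgeR, and DESeq2 called NR_003604 (FDR = 0.00407) and NR_003606 (FDR = 0.00144).

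SNHG8 has 3 isoforms that differ in their first exons. NR_003584 (619 nt) made up 58.0% and 52.1% of the gene's counts with shScr, 50.01% and 54.7% in shRBM10#1, and 46.6% and 44.6% in shRBM10#2. NR_034010 (468 nt) made up 37.5% and 40.6%, 44.4% and 40.8%, and 44.6% and 45.5%. The shRBM10#2 libraries were lowest for the first and highest for the second, and how often other isoforms separate so was not computed. NR_034011 (274 nt) took 4.50% to 9.81% of the counts and 33.1% to 51.8% of the TPM of the gene, because its effective length was only 19.2 to 48.7 nt. The TPM of SNHG8 therefore rests largely on 34.6 to 82.5 expected counts, and its log2 FC with shRBM10#2 was −0.05 in counts and 0.36 in log2(TPM + 1) by limma.

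SNHG7 came mainly from 1 isoform. NR_024542 (968 nt) made up 87.7% to 91.1% of the counts in every library, NR_024543 (853 nt) 6.78% to 8.92% and the 2-exon NR_003672 2.10% to 4.36%. For NR_024543 both shScr libraries (8.92% and 8.38%) lay above the other 4 (6.78% to 7.65%), and how often other isoforms separate in this way was not computed. For NR_003672 the shRBM10#2 libraries (3.44% and 3.55%) lay just above shScr (3.33% and 3.34%), and the shRBM10#1 libraries (4.36% and 2.10%) spanned both.

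Isoform usage, how a gene's output divides among its isoforms, was tested with edgeR's diffSpliceDGE. None of the 3 genes passed with shRBM10#1 (background 0.25% of 6405 genes), with shRBM10#2 (background 1.9%) or in the pooled comparison (background 0.234%), and none had an unadjusted p below 0.05. The smallest p was that of ZFAS1 with shRBM10#2 (unadjusted p = 0.189, edgeR). limma's diffSplice called 0 in each comparison too, with an unadjusted p of 0.0266 (FDR = 0.166) for ZFAS1 with shRBM10#2.

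**Figure D3:**
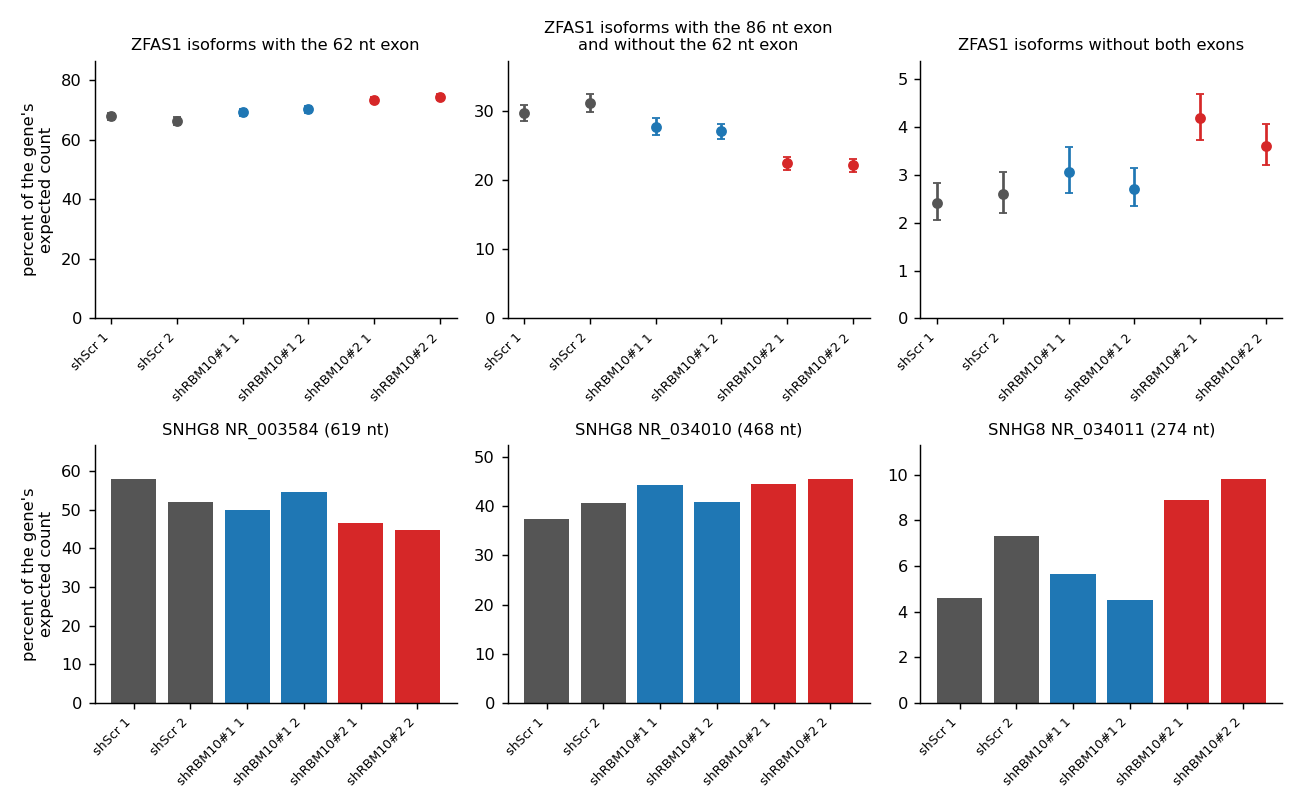
Percent of the expected count of ZFAS1 by internal exons (upper panels, points with 95% Wilson intervals) and of SNHG8 by isoform (lower panels, bars) in each library, vertical axes from 0. ZFAS1 forms with the 62 nt exon run from 66.3% to 67.9% with shScr and from 73.4% to 74.3% in shRBM10#2, while forms with the 86 nt exon alone run from 29.7% to 31.1% and from 22.1% to 22.4%.

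The wider pathway gave a reference for the host genes. Of 18 further noncoding snoRNA hosts, 16 had entries and 11 were tested. With shRBM10#1, 1 was called lower (DANCR, a host that also acts in differentiation), with shRBM10#2 1 was called higher (SNHG16), and between the shRNAs 4 were higher with shRBM10#2. The shares called were 9.09%, 9.09% and 36.4%, against 14%, 25.9% and 25.5% of all genes. In the direction named, 6.91% of all genes were lower with shRBM10#1, 12% higher with shRBM10#2 and 11% higher between the shRNAs. The medians were −0.09, 0.13 and 0.31. SNHG16, which hosts C/D snoRNAs, was at 41.2 and 45.8 CPM in shScr, 39.9 and 36.8 CPM in shRBM10#1, and 83.0 and 79.3 CPM in shRBM10#2. Its log2 FC with shRBM10#2 was 0.90 (SE 0.0762, FDR = 4.12e-05, edgeR). DANCR was at 33.4 and 28.7 CPM with shScr and 24.4 and 24.1 CPM in shRBM10#1, a log2 FC of −0.36 (SE 0.0852, FDR = 0.0142).

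Factors of the decay machinery itself were called in both directions. All 24 listed factors were tested. With shRBM10#1, 2 were lower, RNPS1 (log2 FC −0.58, FDR = 2.66e-04, edgeR) and UPF3B (−0.34, FDR = 0.0114), which link the exon junction to the decay complex. With shRBM10#2, 2 were higher and 5 lower. The lower included the endonuclease SMG6 (−0.42, FDR = 0.00212), its relative SMG5 (−0.30, FDR = 0.00613) and the helicase UPF1 (−0.31, FDR = 0.00945), the core of the pathway. UPF3B was among the lower here too (−0.31, FDR = 0.0122, edgeR). UPF1 was at 269 and 268 CPM in shScr, 301 and 260 CPM in shRBM10#1, and 217 CPM in both shRBM10#2 libraries. The higher were the decapping enzyme DCP2 (0.30, FDR = 0.0178) and MAGOHB of the exon junction complex (0.22, FDR = 0.0462). The shares called were 8.33% and 29.2%, against 14% and 25.9% of all genes. Between the shRNAs 1 factor was higher with shRBM10#2, RNPS1 (0.66, FDR = 1.54e-04, edgeR), and 5 were lower. The share called there was 25%, against 25.5% of all genes.

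Protein-coding transcripts known as targets of the pathway were called lower more often than higher with both shRNAs. Of 13, all tested, 9 were lower and 1 higher with shRBM10#1 (76.9% called), and 6 were lower and 1 higher with shRBM10#2 (53.8%). Of all genes, 6.91% and 13.9% were called lower in these comparisons. The medians were −0.41 and −0.34. GADD45A, a growth arrest gene, had a log2 FC of −0.84 with shRBM10#1 (FDR = 6.86e-05, edgeR) and −0.49 with shRBM10#2 (FDR = 0.00186). CARS, a tRNA synthetase, had −0.77 (FDR = 5.38e-05) and −0.54 (FDR = 6.00e-04). ATF3, a stress transcription factor, had −1.47 (FDR = 8.96e-05) and −0.63 (FDR = 0.00842), and the cell cycle inhibitor CDKN1A had −0.92 (FDR = 2.18e-04) and −0.77 (FDR = 6.43e-04). PISD, a lipid enzyme, was the exception, at 0.27 (FDR = 0.0389) and 0.39 (FDR = 0.00408). ATF3, GADD45A, CARS, SLC7A11 and ATF4 are also genes of the amino acid stress response. Between the shRNAs 5 of the 13 were higher with shRBM10#2 and 1 lower (46.2% called), where 11% of all genes were higher and 14.5% lower.

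Genes tied to growth gave no single direction. Of 79 cytosolic ribosomal protein genes, 3 were higher and 0 lower with shRBM10#1 (3.8% called), where 7.13% of all genes were higher and 6.91% lower. With shRBM10#2, 31 were higher and 9 lower (50.6%), where 12% of all genes were higher and 13.9% lower. Between the shRNAs 18 were higher and 13 lower (39.2%), where 11% of all genes were higher and 14.5% lower. RPS24 (0.55), RPL36 (0.56) and RPL9 (0.55) had the smallest FDR among those higher with shRBM10#2 (at most 8.16e-04, edgeR), and RPL21 (−0.80), RPS9 (−0.40) and RPS27A (−0.35) among those lower (at most 0.00746). Of 14 other TOP genes of translation, 3 were higher and 2 lower with shRBM10#2, EIF3E (0.37) and EEF2 (−0.30) among them (35.7% called, against 25.9% of all genes), and 0 passed with shRBM10#1, against 14%. Of 16 proliferation genes, 3 were higher and 1 lower with shRBM10#2 (25% called, near the 25.9% of all genes). CDK1, the mitotic kinase, was higher by 0.60 (FDR = 9.23e-05), the DNA clamp PCNA by 0.44 (FDR = 8.46e-04) and the helicase subunit MCM4 by 0.25 (FDR = 0.0152), whereas MCM7 was lower (−0.25, FDR = 0.0133). None of the 16 passed with shRBM10#1, against 14% of all genes. Whether growth or decay had any part in the levels of the host genes was not tested.

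**Figure D4:**
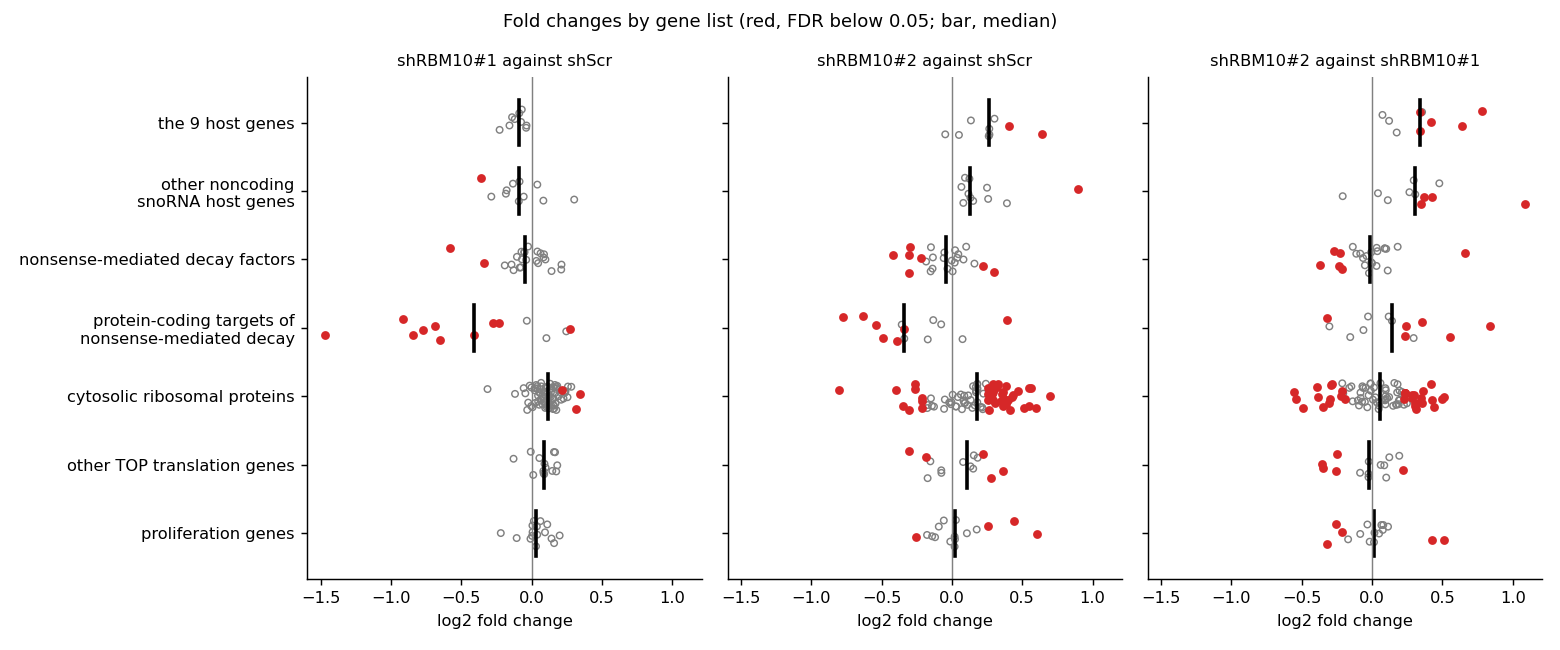
Log2 FC (horizontal axes, the same scale in each panel) of every tested gene in each list for the 3 comparisons between conditions; red points have an FDR below 0.05 and black bars are medians. The median of the 9 host genes runs from −0.09 with shRBM10#1 to 0.27 with shRBM10#2, while that of the protein-coding decay targets is −0.41 and −0.34.

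The host genes were also compared by their mean pattern over the libraries. The mean of their centred log2 CPM was 0.13 and −0.23 in shScr cells, −0.22 and −0.08 in shRBM10#1 cells, and 0.18 and 0.22 in shRBM10#2 cells. Each gene's correlation with that mean, which includes the gene itself, was Pearson's r = 0.99 for GAS5, 0.97 for SNHG6, 0.96 for SNHG1, 0.94 for SNHG5, 0.93 for ZFAS1 and SNHG12, 0.89 for SNHG15, 0.80 for SNHG7 and 0.69 for SNHG8 over the 6 libraries. Of 9455 other genes with a mean of at least 10 CPM, those with the pattern most like this mean were POLR2L (r = 0.995), RPS12 (0.994), COA1 (0.991), CYSTM1 (0.990) and TBCA (0.989). They are 503 to 1121 nt long. The pattern was thus not particular to the host genes, and how r was spread over the other genes was not computed. RPS12, a ribosomal protein gene that itself hosts snoRNAs, was at 603 and 498 CPM in shScr, 482 and 531 CPM in shRBM10#1, and 615 and 633 CPM in shRBM10#2. The points share their libraries, depth and fragment length, and the values are given as a description without a test.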

How the data were processed

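RNA-Seq of PC-9 cells was quantified by the authors with RSEM, and expected counts (reads shared by isoforms are split, so values need not be whole), TPM, FPKM and each isoform's percent of its gene were deposited per library for RefSeq isoforms. The submitters' processing notes name hg19, STAR 2.4, RSEM 1.2.29 and edgeR. The strand protocol is not given in the sources used here. FPKM was not used.

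Expected counts were summed per gene, rounded and tested with edgeR 4.0.16 (R 4.3.3; quasi-likelihood, TMM, filterByExpr, FDR below 0.05, Benjamini-Hochberg over all genes or isoforms). All 9 genes and 17 isoforms passed the filter. Isoform usage was tested with diffSpliceDGE (Simes p per gene). limma 3.58.1 on log2(TPM + 1), DESeq2 1.42.0, an effective length offset, other filters, the replicate block and each library left out were alternatives. On counts simulated for 14073 genes, the test recovered 84% of genes changed by a log2 FC of 0.5 in the comparison of shRBM10#2 with shScr. The changed genes were drawn at random from expressed genes, so the 84% is not the recovery for the 9 host genes. Python 3.11.15, SciPy 1.17.1 and matplotlib 3.10.9 were also used. Replicates differed by more than sampling noise (chi-square per degree of freedom 3.24 to 12.5).

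The genes and lists were chosen with earlier results of these data known. Genes named from other lists were at most the 3 with the smallest FDR per direction with either shRNA against shScr, and the 5 most similar genes. ATF4, SLC7A11, MCMDC2, ZNFX1 and GAS5-AS1 were named after their values were seen. Positions are from GENCODE 29 (GRCh38) and were not converted from hg19.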

Additional observations from a re-analysis of the deposited data

Results flagged for a closer look

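Of the 9 host genes, 5 were singled out because the effects of the shRNAs differed by a test of the difference itself (shRBM10#2 against shRBM10#1, edgeR quasi-likelihood test, Benjamini-Hochberg adjustment over 14217 genes). The log2 FC was 0.78 for SNHG12 (FDR = 0.00329) and 0.64 for SNHG1 (FDR = 0.00161), higher in both shRBM10#2 libraries than in both shRBM10#1 libraries. It was 0.42 for GAS5 (FDR = 0.0147), 0.34 for SNHG6 (FDR = 0.0325) and 0.34 for SNHG15 (FDR = 0.0491), with the same separation of libraries. For GAS5, SNHG6 and SNHG15 the call was lost with the effective length offset. Of all genes, 25.5% were called in this comparison and 32.9% had libraries separated in that direction. No group held enough libraries for a test of single outlying samples.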

How the results depend on the processing

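With shRBM10#1 against shScr, 0 of the 9 host genes were called. The count was 1 without the filter on low counts. Against shScr, shRBM10#2 gave 2, with 4 without the filter and 0 under the study's criteria. Against shRBM10#1 it gave 5, with 0 under the study's criteria, 2 with the effective length offset, 2 with the offset and the replicate block and 3 with limma on log2(TPM + 1). These counts changed when single libraries were left out. Most such fits leave 1 library in a contrasted condition and have less power, so their counts are not given. In the pooled comparison the count was 0 under every alternative run. Of the member isoforms, DESeq2 called 4 with shRBM10#2 and edgeR 0. The cause was not tested.

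Directions that depended on the setting were mostly those with shRBM10#1. With the effective length offset its log2 FC was 0.052 for SNHG6 and 0.029 for SNHG8, and 0.069 and 0.049 with the block added. Leaving out single libraries gave −0.33 to 0.041 for GAS5, −0.43 to 0.0093 for SNHG1, −0.35 to 0.23 for SNHG5, −0.19 to 0.13 for SNHG6, −0.32 to 0.24 for SNHG7, −0.27 to 0.039 for SNHG8, −0.29 to 0.031 for SNHG12, −0.17 to 0.022 for SNHG15 and −0.15 to 0.073 for ZFAS1. All 9 turned without shScr replicate 1, and SNHG5 and ZFAS1 also without shRBM10#1 replicate 1. With shRBM10#2 against shScr, SNHG8 was at 0.39 with the offset, 0.40 with the offset and the block, 0.36 with limma and −0.19 to 0.11 with single libraries left out, SNHG7 at −0.20 to 0.36, and the ZFAS1 isoform NR_003605 at −0.52 to 0.42. SNHG8 between the shRNAs ranged from −0.011 to 0.17. The share of ZFAS1 with the 62 nt exon kept its direction in TPM and without each library in turn, alternatives chosen after seeing the data. Since the conditions did not overlap, leaving out 1 library could not reverse the direction, and that outcome is no support. With single libraries left out, the difference of shRBM10#2 from shScr was 5.99 to 7.55 percentage points.

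The replicate numbers did not pair the libraries (correlation of deviations −0.0638, −0.0363 and −0.043). With the replicate block the calls were 0, 2 and 4 of 9 in the 3 comparisons. Depth limits SNHG12 and the rarer isoforms most, and with 2 libraries per condition 1 control library moved several log2 FC values.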
